A study of Rattus norvegicus with 6 samples.

Results

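Ribosome biogenesis is the making of ribosomes in the nucleolus, where RNA polymerase I transcribes ribosomal DNA and a large set of assembly factors cuts, modifies and folds the transcript into the 40S and 60S subunits. MYC is a transcription factor that, paired with its partner MAX, binds the DNA sequence CACGTG, known as the E-box, and its textbook targets include many of these factors together with enzymes that make nucleotides and polyamines. In the postnatal rodent heart, growth and the last rounds of cardiomyocyte division fall in the first weeks after birth. Described here are 38 such genes, chosen by symbol: Myc, Mycn and Max, the enzyme genes Cad, Odc1 and Srm, and 32 genes of the nucleolus. A row of the gene count table bore the symbol of 37 of the 38 (all but Heatr1), out of 33565 rows in all, and all 37 passed the filter on low counts that left 15075 rows to test.

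The cells were primary cardiomyocytes isolated from the hearts of Sprague-Dawley rats on postnatal day 7 and grown in medium with 10% fetal bovine serum. The 3 control libraries came from cells given vehicle and the 3 progesterone libraries from cells given 100 nM of the steroid hormone progesterone, both for 24 h. No genotype was altered in either group. The labels call the 3 samples of a group biological replicates but do not say whether they were separate animals or cultures, so each p-value reflects only how far these 6 samples scatter, and that scatter may be technical.

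Promoters of 32 of the 37 genes were found in RefSeq (build GRCr8), each a window of 300 bases that runs from 250 before the transcript start to 50 after it. None was found for Myc, Mycn, Wdr43, Tbl3 or Bop1. The E-box CACGTG, which reads the same on both strands, occurred in 12 of these 32 windows (37.5%), in 9.15% of the 10306 windows of tested genes and in 6.42% of all 33469 windows. The related sequence CACGCG, searched on both strands, occurred in 31.2%, 16.8% and 8.5% of the same sets. The windows of members and of tested genes had a similar median GC content (59.8% and 61.0%). Because the list was drawn up around MYC and the kinds of genes among its textbook targets, its E-box share is not an independent finding. The windows below are those of the 4 genes with an E-box whose change with progesterone had the smallest adjusted p, with the E-box in capitals. They lie at chr4:159618716-159619015 on the plus strand (Nop2), chrX:157751401-157751700 on the plus strand (Dkc1), chr6:101395241-101395540 on the minus strand (Max) and chr1:250655269-250655568 on the minus strand (Rrp12).
Nop2: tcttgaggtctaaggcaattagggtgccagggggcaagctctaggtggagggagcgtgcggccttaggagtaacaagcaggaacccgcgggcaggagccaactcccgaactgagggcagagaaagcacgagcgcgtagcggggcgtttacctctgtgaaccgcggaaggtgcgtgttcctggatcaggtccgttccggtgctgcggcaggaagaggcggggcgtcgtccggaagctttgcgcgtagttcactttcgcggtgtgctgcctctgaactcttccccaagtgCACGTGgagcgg
Dkc1: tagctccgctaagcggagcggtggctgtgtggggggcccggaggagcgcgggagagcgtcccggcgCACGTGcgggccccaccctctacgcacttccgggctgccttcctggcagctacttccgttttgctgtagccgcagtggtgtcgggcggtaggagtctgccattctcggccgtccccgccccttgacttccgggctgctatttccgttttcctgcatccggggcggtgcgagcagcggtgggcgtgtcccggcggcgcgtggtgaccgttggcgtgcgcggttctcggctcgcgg
Max: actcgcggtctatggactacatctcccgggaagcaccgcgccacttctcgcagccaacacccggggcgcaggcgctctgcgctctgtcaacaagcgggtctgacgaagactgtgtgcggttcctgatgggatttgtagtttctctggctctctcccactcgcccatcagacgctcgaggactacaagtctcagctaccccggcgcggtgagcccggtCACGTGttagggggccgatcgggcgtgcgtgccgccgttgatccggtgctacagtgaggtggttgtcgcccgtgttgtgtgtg
Rrp12: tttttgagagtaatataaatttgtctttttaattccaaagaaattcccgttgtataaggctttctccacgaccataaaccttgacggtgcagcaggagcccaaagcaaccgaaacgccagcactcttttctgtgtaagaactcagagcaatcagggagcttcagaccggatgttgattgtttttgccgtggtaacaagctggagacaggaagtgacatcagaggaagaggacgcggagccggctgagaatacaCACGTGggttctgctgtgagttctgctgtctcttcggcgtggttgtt

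The E-box began 38 bases after the transcript start in Nop2, 184 before it in Dkc1, 33 before it in Max and 3 after it in Rrp12. Of these genes Nop2, Dkc1 and Rrp12 rose with progesterone and Max fell, as given below. Among the members with a window, Nhp2 set aside, 9 of the 12 with an E-box rose and 1 fell (median log2 fold change 0.55). Of the 19 without it, 17 rose (median 0.48). Over all genes tested, 31.2% rose and 31.8% fell at the threshold given below. Among the other genes of the pathway described further on, 35 of 152 windows (23%) held an E-box. Of those 35 genes 18 rose and 6 fell, and of the 117 without it 58 rose and 21 fell. The medians were 0.20 with it and 0.15 without it. A match to 6 letters describes the window and is not evidence of binding.

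Most of these genes were modestly higher with progesterone, and no nucleolar gene among them fell at the threshold, though Wdr12 came close to it. By edgeR's quasi-likelihood test with Benjamini-Hochberg adjustment over all 15075 genes, 29 of the 37 members rose at an adjusted p under 0.05 (78.4%), where 31.2% of all genes tested rose. Only Max fell (1 of 37, or 2.7%), against 31.8% of all genes. The median log2 fold change (progesterone against control) was 0.47 over the members and 0.00 over all genes tested. The rises were small: 10 of the 37 members rose at least 1.5-fold and Cad alone at least 2-fold. Of all 15075 genes tested, 1973 rose at least 1.5-fold and 1076 at least 2-fold. In 28 members every progesterone library lay above every control library, and in 3 (Max, Pes1 and Wdr12) every progesterone library lay below, while such separation was found for 33.8% and 34.8% of all genes tested. Upper quartile scaling in place of TMM scaling moved the median of all genes by 0.10 and the members' median to 0.56. It left 30 members higher, where 38.8% of all genes tested were higher. With that scaling 60.1% of all changed genes were higher, against 49.6% with TMM. The members and the lists below were chosen with earlier results of these data known.

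**Figure D1:**
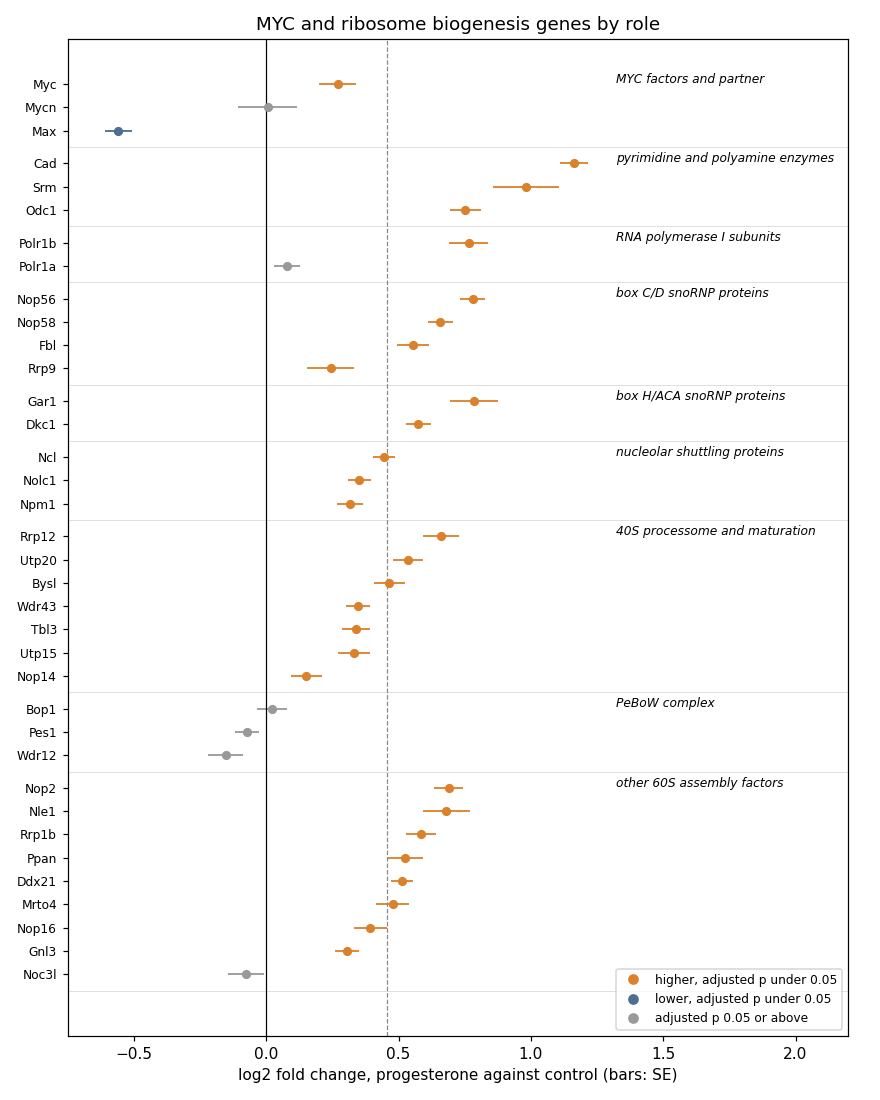
Log2 fold change of each member (x axis, progesterone against control, bars are SE from the edgeR fit over 3 against 3 libraries), grouped by role, with Nhp2 left out because 1 library decides its value; the dashed line is the median of the 36 genes shown. Nearly all points lie to the right of 0, with Cad farthest to the right at 1.16, Max alone clearly to the left at -0.56, and the 3 PeBoW genes around 0.

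The members were read at very different levels. On the authors' FPKM scale, which divides by gene length, Npm1 (274 FPKM in the controls) and Ncl (182 FPKM) stood far above the rest, and Fbl followed at 43.5 FPKM. The lowest, apart from Nhp2, were Srm at 3.89, Polr1b at 4.42 and Mycn at 4.77 FPKM. Replicates lay close together: the coefficient of variation of CPM (read counts scaled to TMM-adjusted library size) over the 36 members without Nhp2 had a median of 4.21% among control and 4.52% among progesterone libraries, and reached 15.4% for Mycn in the controls. The summed level of all 37 members ran from 2472 to 2572 CPM in the controls and from 3271 to 3446 CPM with progesterone.

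**Figure D2:**
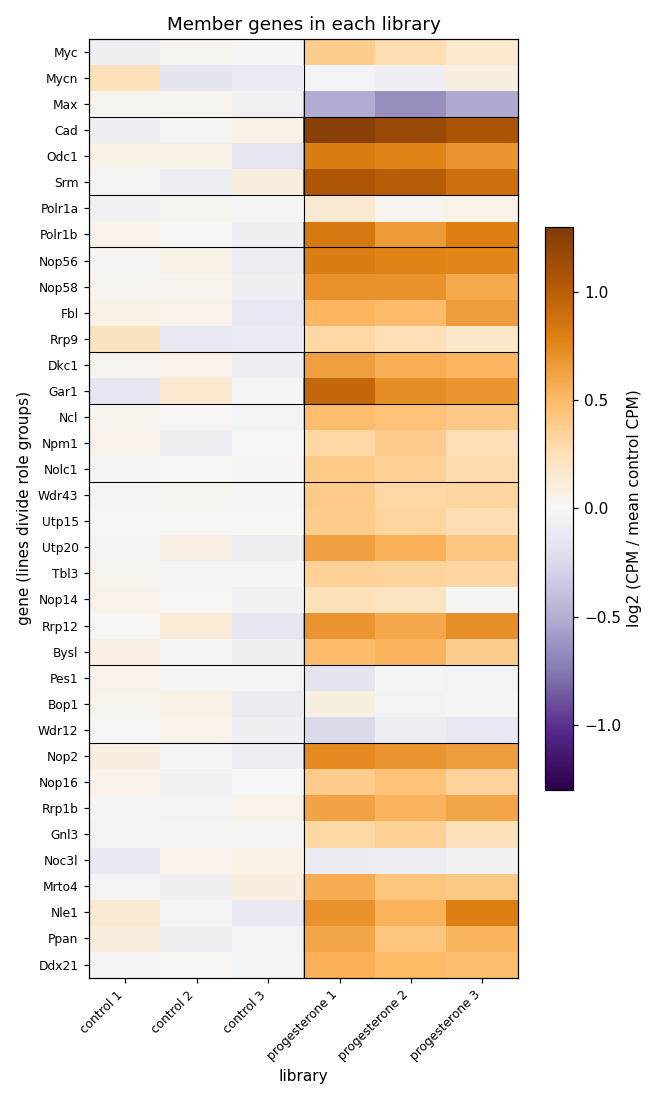
Level of 36 members in each of the 6 libraries, as log2 of CPM over the mean control CPM (colour scale; rows are genes, black lines divide role groups and treatments). The 3 progesterone columns are similar to each other, with the deepest rise in the row of Cad and a fall in the row of Max.

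The MYC factors themselves moved little, and MAX fell. Myc, on chromosome 7, was read at 25.2, 27.0 and 26.7 CPM in the controls and at 34.2, 31.6 and 29.3 CPM with progesterone. The groups did not overlap, and the rise of 1.21-fold passed (log2 fold change 0.27 ± 0.07, SE; edgeR adjusted p = 0.0031). Mycn, the paralog of Myc that is best known from embryonic tissues, was read at 14.7, 11.2 and 11.6 CPM in the controls and at 12.3, 12.1 and 13.3 CPM with progesterone. Its groups overlapped and no change was detected (log2 fold change 0.01 ± 0.11, adjusted p = 0.97). Max, the partner that MYC and several of its antagonists share, was read at 74.0, 74.2 and 70.5 CPM in the controls and at 51.1, 46.6 and 50.8 CPM with progesterone. All progesterone libraries lay below all controls, a 1.47-fold fall (log2 fold change -0.56 ± 0.05, adjusted p = 1e-07). On the FPKM scale the ratio of Max to Myc was 3.75 ± 0.198 (SD, n = 3) in the controls and 2.12 ± 0.196 with progesterone.

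Other genes of the MYC and MAX network moved both ways. Of 16 listed, 13 were tested, of which 4 rose (30.8%, against 31.2% of all genes) and 6 fell (46.2%, against 31.8%), with a median log2 fold change of -0.17. Mxi1, which encodes a MAX partner that opposes MYC, had 41.1, 36.6 and 42.3 CPM in the controls and 19.4, 22.2 and 19.6 CPM with progesterone (log2 fold change -0.97 ± 0.07, adjusted p = 1.7e-08). Mxd1, of the same repressor family, fell from 50.2 to 29.7 CPM (-0.76 ± 0.08, adjusted p = 7.9e-07). Mxd4, another member of that family and read at a higher level, rose from 132 to 196 CPM (0.57 ± 0.04, adjusted p = 1.2e-08). The antagonists of MYC thus moved in both directions. Ruvbl2, an ATPase of chromatin remodelling complexes that binds MYC, rose from 35.8 to 50.4 CPM. Mycl was too low to be tested, at 0.347 and 0.2 CPM.

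**Figure D3:**
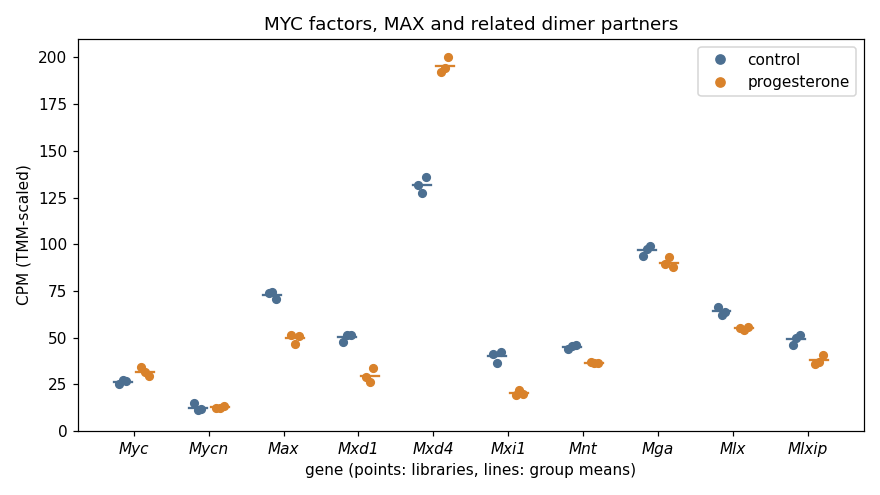
CPM of Myc, Mycn, Max and 7 further genes of the MAX and MLX network in each library (points; lines are group means; y axis starts at 0). The Max, Mxd1 and Mxi1 points of the progesterone libraries lie below those of the controls and those of Mxd4 above, while Mycn overlaps.

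The 3 enzymes of pyrimidine and polyamine synthesis all rose (100%, against 31.2% of all genes tested). Cad and Srm changed more than any other member but Nhp2. Cad, the enzyme of the first steps of pyrimidine synthesis, was read at 51.6, 52.9 and 56.2 CPM in the controls and at 127, 120 and 112 CPM with progesterone. That 2.24-fold rise was the largest among the members other than Nhp2 (log2 fold change 1.16 ± 0.05, adjusted p = 3e-11). Odc1, ornithine decarboxylase, which makes the polyamine putrescine, was read at 108, 108 and 92.8 CPM and at 180, 174 and 165 CPM. It rose 1.69-fold (0.75 ± 0.06, adjusted p = 7.1e-08), and the groups lay far apart. Srm, which turns putrescine into spermidine, rose 1.98-fold from a low level, from 4.86 ± 0.318 to 9.6 ± 0.608 CPM (SD, n = 3). A row described as spermidine synthase-like held 16 to 36 counts per library beside 107 to 213 of Srm, so some reads of Srm may sit in that row.

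Other enzymes of these pathways moved both ways. Of 23 tested genes of nucleotide and polyamine metabolism, 11 rose (47.8%, against 31.2% of all genes) and 5 fell (21.7%, against 31.8%). Their median log2 fold change was 0.10. Impdh2, of guanine nucleotide synthesis, rose from 102 to 186 CPM (0.86 ± 0.04, adjusted p = 1.3e-10) and Gart, of purine synthesis, from 51.3 to 82.4 CPM (0.68 ± 0.05, adjusted p = 1.1e-08). Ctps2, a CTP synthase, fell from 60.4 to 24.3 CPM (-1.31 ± 0.06, adjusted p = 3.1e-11). Oaz2, an antizyme that directs ornithine decarboxylase to degradation, fell from 109 to 76.4 CPM (-0.51 ± 0.04, adjusted p = 2.9e-08). Its better known relative Oaz1, named after its values were seen, fell from 396 to 301 CPM (-0.40 ± 0.05, adjusted p = 7e-06).

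Of the large subunits of RNA polymerase I, the enzyme that transcribes ribosomal RNA genes, Polr1b rose and Polr1a did not pass. Polr1b was read at 17.4, 16.6 and 16.1 CPM in the controls and at 29.7, 26.3 and 29.1 CPM with progesterone, a 1.7-fold rise (log2 fold change 0.77 ± 0.07, adjusted p = 2.1e-07). Polr1a, the largest subunit, was read at 54.1 ± 1.54 and 57.1 ± 2.29 CPM, with every progesterone library slightly above every control. Its log2 fold change of 0.08 ± 0.05 did not pass (adjusted p = 0.18), though it did with upper quartile scaling (0.17, adjusted p = 0.006). The FPKM ratio of Polr1b to Polr1a was 0.494 ± 0.0328 in the controls and 0.794 ± 0.0359 with progesterone (SD, n = 3). Of 33 other genes of the polymerase I and III machinery, 17 rose (51.5%, against 31.2% of all genes) and 3 fell (9.09%, against 31.8%). Their median was 0.18. Gtf3c4, of the polymerase III factor TFIIIC, rose from 46.6 to 66 CPM and Polr1c, a subunit shared by both polymerases, from 41.5 to 60.6 CPM. Polr3c fell from 32.8 to 28.4 CPM (adjusted p = 0.0098) and Ttf1, the polymerase I termination factor, from 20.4 to 17.8 CPM (adjusted p = 0.022), but neither call was stable. Polr3c missed the threshold with upper quartile scaling (adjusted p = 0.14) and without control replicate 2 (0.05). Ttf1 missed it with upper quartile scaling (0.21), without control replicate 1 or 3 or progesterone replicate 2 or 3 (0.051 to 0.057), with DESeq2 (0.079) and with limma (0.054 and 0.059).

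All 4 members that encode proteins of the box C/D particles rose (100%, against 31.2% of all genes tested). These particles guide ribose methylation of ribosomal RNA. Nop56, a core scaffold protein, was read at 57.8, 59.8 and 53.9 CPM in the controls and at 99.9, 97.6 and 96.9 CPM with progesterone. The groups were far apart for this 1.72-fold rise (log2 fold change 0.78 ± 0.05, adjusted p = 1.1e-09). Its partner Nop58 rose 1.58-fold to 112 ± 4.64 CPM, and the methyltransferase Fbl 1.47-fold to 75.7 ± 4.48 CPM (SD, n = 3). The row of Fbl shares 373 bases with that of Dyrk1b, which had a log2 fold change of -0.00043 ± 0.072. Rrp9, a protein of the U3 particle, was the least changed (24.1 ± 3.39 to 28.6 ± 1.33 CPM, adjusted p = 0.027). Snu13, a further core protein of these particles and not a member, rose from 47.6 to 64.3 CPM (0.44 ± 0.05, adjusted p = 6.1e-07). The groups of Rrp9 overlapped, and its call was lost without control replicate 2 (adjusted p = 0.13) or 3 (0.1), or without progesterone replicate 1 (0.094) or 2 (0.067).

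Of the 3 members of the box H/ACA particles, which guide pseudouridylation, Dkc1 and Gar1 rose (66.7%, against 31.2% of all genes tested). Nhp2 could not be read. Dkc1, the pseudouridine synthase, was read at 73.1, 73.8 and 67.9 CPM in the controls and at 111, 106 and 103 CPM with progesterone (log2 fold change 0.57 ± 0.05, adjusted p = 4.2e-08). Gar1, a core protein that binds the synthase, rose 1.72-fold, from 17.1 ± 1.82 to 29.4 ± 2.91 CPM (SD, n = 3). Nop10, the remaining core protein, rose from 36.2 to 53.6 CPM (0.57 ± 0.06, adjusted p = 6.1e-07). Nhp2 held 6, 13 and 9 counts in the controls and 17, 1143 and 9 counts in progesterone libraries 1, 2 and 3. Progesterone replicate 2 thus stood 66.8-fold above the next library in CPM, and the log2 fold change of 5.52 did not pass (adjusted p = 0.14). Without that library the log2 fold change was 0.59 (adjusted p = 0.34).

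The Nhp2 row lies on chromosome 10 (34975708 to 34979082 in the coordinates of the deposited table, whose rat build is unnamed), and another row on that chromosome (37069344 to 37072733) is described as H/ACA ribonucleoprotein complex subunit 2, the protein that Nhp2 encodes. That row held 2 counts in progesterone replicate 2 and none in the other 5 libraries. Reads that match both rows may have been dropped by the counting. Neither that nor why progesterone replicate 2 differed was tested. Of all rows, 14 had a library more than 10-fold above all others (after adding 0.5 CPM), 2 of them in progesterone replicate 2, and Nhp2 was the only member among them.

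**Figure D4:**
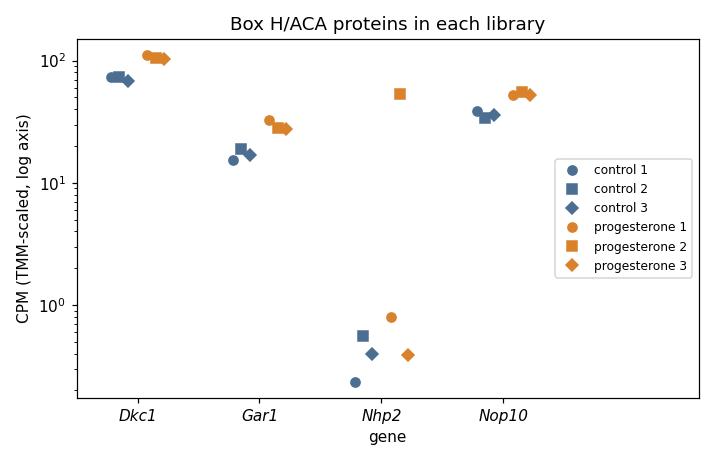
CPM of the box H/ACA genes in each library on a log axis (blue controls, orange progesterone, marker shapes are replicates 1 to 3). Dkc1, Gar1 and Nop10 form tight groups that do not overlap, whereas Nhp2 lies below 1 CPM in 5 libraries and at 53.8 CPM in progesterone replicate 2.

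Of 17 further genes of snoRNP assembly and RNase MRP, 9 rose (52.9%, against 31.2% of all genes) and 4 fell (23.5%, against 31.8%). Their median log2 fold change was 0.22. Rpp30, a subunit of RNase P and MRP, rose from 16.8 to 27.3 CPM (0.70 ± 0.07, adjusted p = 4.3e-07). Rpp25, another subunit, fell from 81.4 to 61.9 CPM (-0.40 ± 0.04, adjusted p = 1.2e-06), as did Pih1d1, of the snoRNP assembly machinery, from 21.5 to 15.1 CPM.

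The 3 shuttling proteins of the nucleolus all rose (100%, against 31.2% of all genes tested), by similar, small factors. Ncl, nucleolin, was read at 483, 471 and 459 CPM in the controls and at 656, 643 and 624 CPM with progesterone (log2 fold change 0.44 ± 0.04, adjusted p = 1.6e-07). Npm1, nucleophosmin, a histone and ribosome chaperone, rose from 440 ± 17.5 to 548 ± 29 CPM, and Nolc1, which binds snoRNPs, 1.28-fold from 122 ± 1.12 to 156 ± 6.54 CPM (SD, n = 3). With 1033 ± 24.5 and 1345 ± 44.5 CPM, these 3 genes made up a large part of the summed level of the members.

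All 7 tested members that build the small subunit rose (100%, against 31.2% of all genes tested). Rrp12, needed for export and maturation of both subunits in yeast, was read at 32.2, 35.0 and 28.8 CPM in the controls and at 51.2, 48.2 and 52.1 CPM with progesterone, a 1.58-fold rise (log2 fold change 0.66 ± 0.07, adjusted p = 6e-07). Utp20, a large scaffold of the processome, the particle that cuts the early transcript, rose 1.45-fold, and Bysl, a late 40S factor, 1.38-fold. Wdr43, Tbl3 and Utp15, further processome proteins, rose 1.27-fold, 1.26-fold and 1.26-fold. Nop14 was nearest to 0 (0.15 ± 0.06, adjusted p = 0.033). Its groups overlapped (54.6 to 58.4 and 57.0 to 66.6 CPM), and the call was lost without control replicate 2 or 3 or progesterone replicate 1 or 2 (adjusted p from 0.089 to 0.15) as well as with DESeq2 (0.064) and with limma on either FPKM scale (0.09 and 0.089).

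Of 44 other genes of small subunit biogenesis, 25 rose (56.8%, against 31.2% of all genes) and 7 fell (15.9%, against 31.8%). Their median log2 fold change was 0.21. Pwp2 and Wdr75, both of the processome, rose from 38 to 55.6 CPM and from 33.4 to 48.5 CPM (adjusted p = 2.5e-07 and 1.2e-06). Rrp36, an early factor, fell from 32.4 to 17.3 CPM (-0.91 ± 0.06, adjusted p = 6.3e-09), and Rcl1, which in yeast acts in early cleavage of the transcript, from 41.3 to 29.3 CPM (-0.49 ± 0.06, adjusted p = 1.6e-06).

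The PeBoW complex, made of Pes1, Bop1 and Wdr12 and needed for maturation of the 60S subunit, had no member past the threshold. Wdr12 was read at 31.6, 32.9 and 30.4 CPM in the controls and at 26.6, 29.8 and 29.0 CPM with progesterone. All progesterone libraries lay below all controls by a small margin, and the log2 fold change of -0.15 ± 0.07 missed the threshold (adjusted p = 0.052), which it passed in 7 of 15 alternatives. Pes1 was read at 82.5 ± 2.1 and 78.4 ± 3.75 CPM (-0.07 ± 0.05, adjusted p = 0.19) and Bop1 at 46.4 ± 2.58 and 47.1 ± 1.9 CPM (0.02 ± 0.06, adjusted p = 0.76). The sign of Pes1 turned with upper quartile scaling. The row of Bop1 shares 2019 bases with the row of Scx and 80 bases with that of Mroh1, both on the other strand. Mroh1 had a mean count of 2224 beside 1067 of Bop1. The log2 fold changes were 0.19 for Scx and -0.57 for Mroh1. Whether reads were counted by strand is not stated. Whether the complex differs from the other members was not tested.

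Of the 9 other members that assemble the 60S subunit, 8 rose (88.9%, against 31.2% of all genes tested). Nop2, an rRNA cytosine methyltransferase, was read at 42.0, 39.3 and 37.8 CPM in the controls and at 66.1, 63.9 and 62.2 CPM with progesterone, a 1.61-fold rise (log2 fold change 0.69 ± 0.05, adjusted p = 2e-08). Nle1, whose yeast counterpart is released from pre-60S particles by the ATPase of the Mdn1 type, rose 1.6-fold. Rrp1b, a nucleolar protein of rRNA processing, rose 1.499-fold. Ppan, the counterpart of the yeast assembly factor Ssf1, rose 1.44-fold, and Mrto4, which holds the place of the ribosomal stalk during assembly, 1.39-fold. Ddx21, a nucleolar RNA helicase, rose 1.43-fold from 125 ± 1.72 to 178 ± 4.61 CPM. Nop16 and Gnl3, which encodes the GTPase nucleostemin, rose 1.31-fold and 1.24-fold. Noc3l, which in yeast serves 60S assembly and DNA replication, was read at 26.8 ± 1.82 and 25.4 ± 0.528 CPM and did not pass (-0.08 ± 0.07, adjusted p = 0.35), and its sign turned with upper quartile scaling.

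Of 52 other tested genes of large subunit biogenesis, 27 rose (51.9%) and 8 fell (15.4%), with a median log2 fold change of 0.17. Rrs1, which brings in the 5S particle, rose from 21.3 to 36 CPM (0.76 ± 0.06, adjusted p = 4.4e-08), and Mdn1, a giant ATPase that remodels pre-60S particles, from 74.5 to 111 CPM (0.57 ± 0.05, adjusted p = 1.4e-07). Eif6, which keeps the new 60S subunit from joining the 40S, fell from 101 to 69.9 CPM (-0.54 ± 0.05, adjusted p = 9.5e-08). Nop53, which in yeast brings the exosome to pre-60S particles, fell from 152 to 113 CPM (-0.43 ± 0.04, adjusted p = 1.5e-07). Over the 6 pathway lists together 93 of 182 tested genes rose (51.1%) and 33 fell (18.1%), with a median of 0.16. Over all genes tested 31.2% rose and 31.8% fell.

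**Figure D5:**
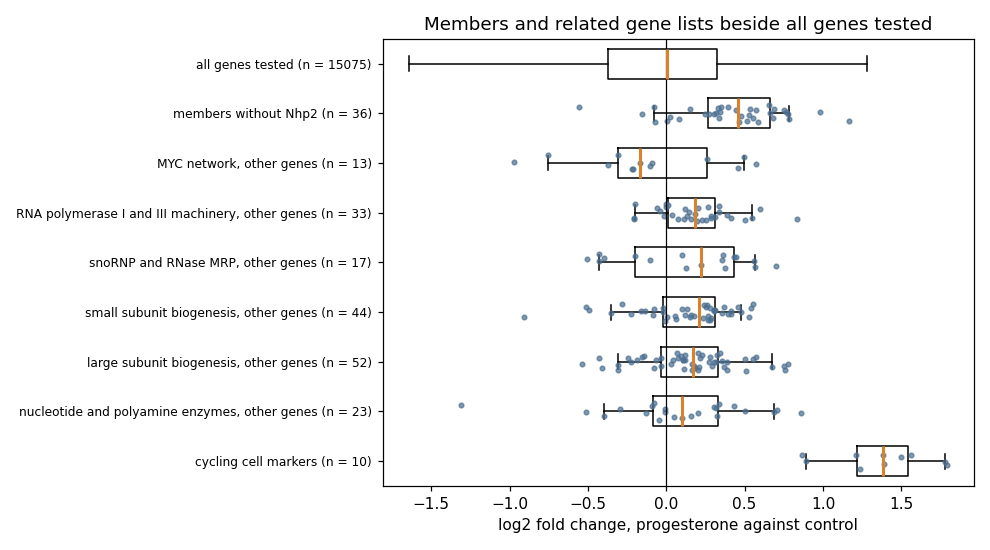
Log2 fold changes (x axis) of all 15075 genes tested, the 36 members without Nhp2, the 6 lists of other pathway genes and the cycling cell markers; boxes span the quartiles, orange lines are medians, whiskers the 5th to 95th percentile, points single genes. The members' median (0.46) lies above those of the 6 lists (-0.17 to 0.22) and below that of the cycling cell markers (1.39).

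The libraries held between 21156793 and 25376220 counts. Cardiomyocyte markers were present in every library. Over 10 genes they summed to 11960 to 12550 CPM in the controls and 10410 to 11380 CPM with progesterone. Of these genes 3 rose (30%) and 5 fell (50%), against 31.2% and 31.8% of all genes tested. Fibroblast markers, among them Col1a1, summed to more over 7 genes, though CPM is not scaled by gene length. The sum was 27260 to 28360 CPM in the controls and 36790 to 39740 CPM with progesterone. Of these 7 genes 4 rose (57.1%), 1 of them at least 2-fold, and 2 fell (28.6%), both at least 2-fold. Their median log2 fold change was 0.17. All 10 cycling cell markers rose, from 476 to 516 CPM in sum to 1273 to 1317 CPM, as did all 8 smooth muscle and pericyte markers, from 2110 to 2487 CPM to 4977 to 5570 CPM. The 4 tested leukocyte markers rose too, and the sum over all 7 with a row was 17.8 to 32.4 CPM in the controls and 145 to 164 CPM with progesterone, while the T cell gene Cd3e had no count in any library and the B cell gene Cd79a none with progesterone. Of 7 endothelial markers 2 rose and 2 fell (147 to 193 and 120 to 164 CPM), or 28.6% each way, near the shares of all genes tested. In such bulk samples a change in the number of cells of a type and a change in RNA per cell cannot be told apart, and the part of these markers in the members' rise was not tested.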

How the data were processed

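The 6 libraries were grouped by their sample titles. Read counts for each gene (whole numbers) and FPKM were deposited by the authors. In the deposited FPKM values, the divisor computed from each gene's count and length lay within 1.57% of each library's count total. Bowtie 0.12.2 and the mouse build mm8 appear in the submitters' processing notes, while the rows are rat Ensembl genes. The rat build, counter and strand setting are unstated. The labels' protocols name mRNA enrichment and a TruSeq RNA kit.

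Members were matched by gene name. Of 189 other pathway genes 185 had a row, some found through RefSeq synonyms. Loci without a gene name stayed in the fit (0.826% to 0.896% of counts).

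The main test was edgeR 4.0.16 (R 4.3.3) on counts: filterByExpr (min.count 10, min.total.count 15), TMM, robust quasi-likelihood fit, and adjusted p under 0.05 over all genes. The SE was derived from the F statistic. The biological coefficient of variation was 9.04%. Chi-square values between replicates (5.5 to 9.64 for each degree of freedom) exceeded sampling noise, so no library's counts were a copy of another's. These values cannot tell whether replicates came from the same culture or animal.

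Alternatives tried were scaling by library size, upper quartile or RLE, keeping all genes, a filter of 1 CPM in 3 libraries, each library left out, a replicate block, DESeq2 1.42.0, and limma 3.58.1 on log2(FPKM + 1) and log2(FPKM + 0.1). The members, gene lists and ratios were chosen with earlier results of these data known. Named are all members and, per pathway list, up to 2 genes in each direction with the smallest adjusted p. Values in every library are given for Myc, Mycn, Max, Cad, Odc1, the member with the smallest adjusted p of each role, and, chosen after values were seen, Nhp2 and Mxi1. Nop10, Snu13 and Oaz1 are named as relatives of members.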

Additional observations from a re-analysis of the deposited data

How the results depend on the processing

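Over 15 alternatives the number of higher members ran from 27 to 30. The share of all tested genes that rose ran from 21.4% without a filter to 38.8% with upper quartile scaling. The members' median log2 fold change ran from 0.43 to 0.56, the latter with upper quartile scaling. Without Nhp2, an alternative added after seeing the data, that median was 0.46. Of the 30 members called, 28 kept their direction and call in every alternative that tested them, and the exceptions were Rrp9 and Nop14. The number of lower members was 2 with library size scaling, without a filter, with the replicate block and with limma on either FPKM scale, and 1 to 2 with a library left out, where Wdr12 joined Max. No pairing by replicate number was detected (correlations of same-numbered deviations 0.049, 0.018 and -0.00094). Not every library correlated best with its own number. Low correlations do not establish that same-numbered samples were prepared apart. With the replicate block 29 members were higher.

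Among the pathway lists, lower genes of the polymerase I and III machinery numbered 0 with upper quartile scaling, 1 with DESeq2 and 1 to 2 with a library left out, against 3. Lower genes of large subunit biogenesis numbered 5 with upper quartile scaling, against 8, and those of nucleotide and polyamine metabolism 3 with that scaling and 3 to 5 with a library left out, against 5. The cause was not tested. Members that did not pass changed sign: Mycn had -0.0083 with library size scaling, -0.0045 without a filter and -0.070 to 0.14 with a library left out, Bop1 -0.026 to 0.051 with a library left out, and Pes1 and Noc3l 0.024 and 0.021 with upper quartile scaling. Of 26 named pathway genes, whose alternatives were added after seeing the data, 24 kept their direction and call throughout, all but Polr3c and Ttf1. For Nhp2, with 6 to 17 counts in 5 libraries and 1143 in the sixth, no value of the change can be relied on.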

Other observations

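No row bore the symbol Heatr1. A row described as HEAT repeat-containing protein 1, outside the rule by which members were chosen, had 14.4 ± 3.59 CPM in the 3 controls and 16.1 ± 2.04 CPM in the 3 progesterone libraries (SD, n = 3) and did not pass (log2 fold change 0.15 ± 0.20, edgeR adjusted p = 0.55).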
